A study of Homo sapiens with 4 samples.

Results

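Antisense RNAs were examined in HGC-27, an established human gastric cancer cell line, as the set of gene names ending in -AS and 1 digit, each compared with the gene whose name stands before -AS, called here its sense partner. Of 31907 gene names with a count in the 4 libraries, 898 had this form, and 73 of them were selected on a total of at least 300 reads counted over the 4 libraries. The choice used how abundant an RNA was in all libraries together and not the contrast between groups. The 73 antisense RNAs named 71 sense partners, because DLGAP1 and GAS6 were each named by 2 of them, and 70 of the partners had a count. HGC-27 cells were cultured for 48 h with PBS as the control (2 libraries), or with 200 ng/ml recombinant IL-17B, written rIL-17B (2 libraries), a cytokine of the IL-17 family that signals through the receptor IL-17RB. Both groups were the same cell line, with no genetic change named in the labels, which also do not say that replicates came from separate cultures, so the p-values measure the spread between these libraries, which may be technical. Libraries were made by the Smart-seq2 method, in which an oligo-dT primer starts reverse transcription and the cDNA is amplified by PCR.

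A natural antisense RNA is copied from the DNA strand opposite to that of another gene. Many start at a shared, bidirectional promoter and run away from the partner (head to head), others run into the partner's 3' end (tail to tail), and others lie inside the partner's transcribed region, often within an intron (contained). Some are known to act on their partner or on microRNAs and proteins elsewhere in the cell, and some are the host transcripts of small nucleolar RNAs, but for many no role is established. Whether reads were assigned by strand is not given in the sources used here, and Smart-seq2 as usually performed does not mark strand, so where exons of both genes overlap, reads of an antisense RNA and of its partner cannot be told apart.

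The libraries held between 12888029 and 17555879 counts, and 3 counts correspond to 0.171 to 0.233 CPM (counts of a gene over the library total, times 1000000). The rIL-17B replicate 1 library stood apart from the other 3. The summed level of 6 mesenchymal markers was 46780 and 46060 CPM in PBS, 702 CPM in rIL-17B replicate 1 and 39080 CPM for replicate 2, and that of 5 epithelial markers was 777, 783, 1818 and 1001 CPM in the same order, although KRT19 of that list had 47 and 43 counts in PBS, 1 in rIL-17B replicate 1 and 58 for replicate 2. Most of the mesenchymal sum in PBS was FN1, at 33130 and 32460 CPM, with 149 CPM in rIL-17B replicate 1 and 27450 CPM for replicate 2. COL1A2, a fibrillar collagen chain, was at 5516 and 5248 CPM in PBS, 1.09 CPM in rIL-17B replicate 1 and 4699 CPM for replicate 2. TWIST1 of the same list was at 13.3 and 9.78 CPM in PBS and at 11.7 CPM in both rIL-17B libraries. Of 7 neural or glial markers 6 had a count, with summed levels of 310.0, 486, 17.2 and 222 CPM. Most of that sum was NES, at 220 and 345 CPM in PBS, 16.1 CPM in rIL-17B replicate 1 and 162 CPM for replicate 2. OLIG1 and OLIG2 had 0 counts in rIL-17B replicate 1, whereas GFAP had 11 and 8 counts in PBS, 9 there and 3 for replicate 2. The extraction protocol in the labels speaks of monocytes, and 6 monocyte markers summed to 8.42 to 10.3 CPM in every library, with 0 to 47 counts of PTPRC, the leukocyte phosphatase CD45. Of that sum CSF1R held 8.14 CPM in rIL-17B replicate 1, against 3.90 and 5.59 CPM in PBS and 6.15 CPM for replicate 2. PTPRC, LYZ, ITGAM and FCGR3A had 0 counts in rIL-17B replicate 1, and CD14 had 4 there, against 23 and 20 in PBS. The epithelial cadherin CDH1 was at 0.440 to 0.753 CPM and the keratin KRT8 at 602 to 1457 CPM. The part of these differences in the results on antisense RNAs was not tested, and each result is given for both rIL-17B libraries.

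The 73 antisense RNAs together held 87418 counts, 70.8% of the counts of all names of this form, and made up 0.136% and 0.137% of the PBS libraries, 0.160% of rIL-17B replicate 1 and 0.142% of the other rIL-17B library. Their median total was 615 counts, against 16 for the names below the limit. The members just inside the limit were TTC28-AS1 with 308 counts, MMP25-AS1 with 312 and RPARP-AS1 with 322, and the names just outside were STARD7-AS1 with 292, TRAM2-AS1 with 289 and PSMG3-AS1 with 287. GENCODE release 29 classes 42 of the 73 as antisense, 14 as processed transcripts, 13 as lincRNAs and 3 as transcribed pseudogenes, while NCBP2-AS2 is listed as protein-coding. By the annotated position, 34 stood head to head with their partner, 18 tail to tail and 16 were contained, one gene wholly inside the other. Another 3 overlapped the partner by their 5' parts with starts over 5000 bases apart, IGFL2-AS1 lay 27866 bases from IGFL2, and no count was found under the name RPARP. Of the 73, 51 shared exon bases with their partner, 57 with any counted gene and 10 shared over 20% of their exon bases, the largest share being 49.6% in EPB41L4A-AS1.

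**Figure D1:**
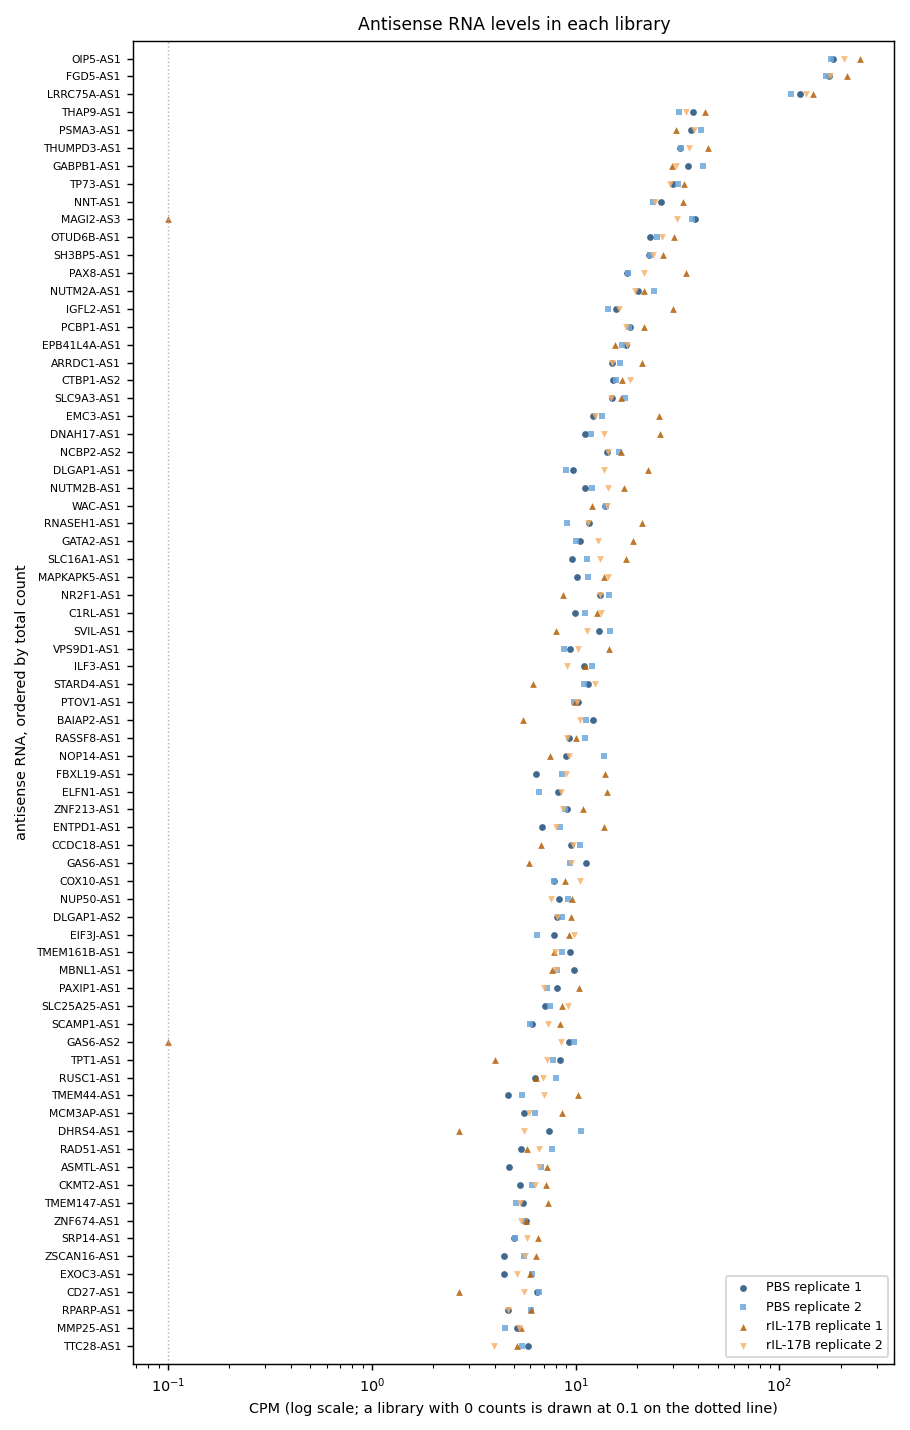
Level of each of the 73 antisense RNAs in CPM (log scale) in the 4 libraries, ordered by total count over the libraries; circles and squares are PBS replicates 1 and 2, upward and downward triangles rIL-17B replicates 1 and 2. OIP5-AS1, FGD5-AS1 and LRRC75A-AS1 lie above 100 CPM in every library, and the triangles of rIL-17B replicate 1 at the dotted line are MAGI2-AS3 and GAS6-AS2 with 0 counts.

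The 3 most abundant antisense RNAs, OIP5-AS1, FGD5-AS1 and LRRC75A-AS1, held 36.3% of the members' counts. OIP5-AS1, the cyrano RNA, which directs the destruction of the microRNA miR-7, lies on chromosome 15 from 41283990 to 41309737 on the plus strand (GRCh38), and its last 470 exon bases overlap the 3' end of OIP5, a factor that loads the histone CENP-A at centromeres. Its level was 184 and 179 CPM in PBS and 248 and 207 CPM with rIL-17B. Both rIL-17B libraries were above both PBS libraries. The log2 fold change of rIL-17B over PBS was 0.25 ± 0.11 (SE), and the quasi-likelihood test of edgeR gave an unadjusted p of 0.0906, which was 0.661 after Benjamini-Hochberg adjustment over all genes tested. OIP5 itself was at 12.2 and 11.2 CPM in PBS and at 24.4 and 18.3 CPM with rIL-17B, again with no overlap of the groups, and its log2 fold change was 0.79 ± 0.19.

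The sequence through which OIP5-AS1 is known to recognise miR-7 is present in its annotated transcript. The mature microRNA is printed with its seed, bases 2 to 8, in capitals, above the site in the exon of OIP5-AS1 whose capitals mark the complement of the seed and a further run of 14 bases complementary to the 3' part of the microRNA. The site lies at chr15:41300570-41300599 on the plus strand of GRCh38 in a transcript of 8829 bases, and the microRNA is from RefSeq.
hsa-miR-7-5p: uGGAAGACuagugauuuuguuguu
OIP5-AS1 site: taagAACAACAAAATCACcaatGTCTTCCa
That transcript held the seed complement at 2 other places, with no such further run. MiR-7 itself was not measured, because the libraries were primed on polyadenylated RNA.

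FGD5-AS1 was at 176 and 169 CPM in PBS and 215 and 176 CPM with rIL-17B. The library of rIL-17B replicate 2 lay close to PBS, and the groups overlapped after normalization by the trimmed mean of M-values (TMM). Its partner FGD5, an activator of the small GTPase CDC42 best known from endothelial cells, had at most 0.171 CPM in any library and did not pass the filter on low counts. LRRC75A-AS1, the host transcript of several small nucleolar RNAs, was at 127 and 114 CPM in PBS and 146 and 135 CPM with rIL-17B, while LRRC75A was at 2.52 and 2.17 CPM in PBS and 1.57 and 1.77 CPM with rIL-17B. For both RNAs the partner was far less abundant than the antisense RNA in every library. EPB41L4A-AS1, which hosts a small nucleolar RNA, was level across the groups at 17.7 and 16.8 CPM in PBS and 15.6 and 17.8 CPM with rIL-17B, and EPB41L4A was at 1.88 to 3.41 CPM. Because 49.6% of the exon bases of EPB41L4A-AS1 are also exon of EPB41L4A, reads of these 2 genes cannot be told apart there.

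Levels of different genes were compared per kilobase of exon, in CPM per kb. The antisense RNAs had a median of 2.55 CPM per kb over the 4 libraries, from 0.471 to 35.9. In the PBS mean, 25 of 72 antisense RNAs with a counted partner exceeded the partner per kilobase, and the median ratio of antisense to sense was 0.622. Between single libraries the median ratio ran from 0.531 to 0.661, and 24 or 25 antisense RNAs were above the partner. FGD5-AS1 had the highest ratio, 33.6 CPM per kb against 0.0135 for FGD5, and SRP14-AS1 the lowest, 1.67 against 135 for SRP14, a subunit of the signal recognition particle. Partners in PBS thus ran from 0.0135 to 135 CPM per kb, a wider range than the antisense RNAs. Only the antisense RNAs had to reach 300 counts, so the choice itself kept low antisense levels out. The 2 ranges, the high ratios and the number above the partner were shaped by that choice. Among the highest ratios, IGFL2-AS1 stood at 8.64 CPM per kb against 0.0290 for IGFL2, an insulin growth factor-like protein, and DLGAP1-AS1 and DLGAP1-AS2 at 4.42 and 2.62 against 0.0472 for DLGAP1, a scaffold of the postsynaptic density. Among the lowest, TPT1-AS1 stood at 0.775 against 54.8 for TPT1, the translationally controlled tumour protein, and GAS6-AS1 at 1.43 against 74.2 for GAS6. PCBP1-AS1 stood at 0.937 against 27.3 for PCBP1, a poly(C)-binding protein. Its place depended on the length used. Over the 4 libraries its ratio was 0.0322 by all annotated exons and 0.258 by the longest transcripts. By the longest transcripts SRP14-AS1, TPT1-AS1 and GAS6-AS1 had ratios of at most 0.0274.

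**Figure D2:**
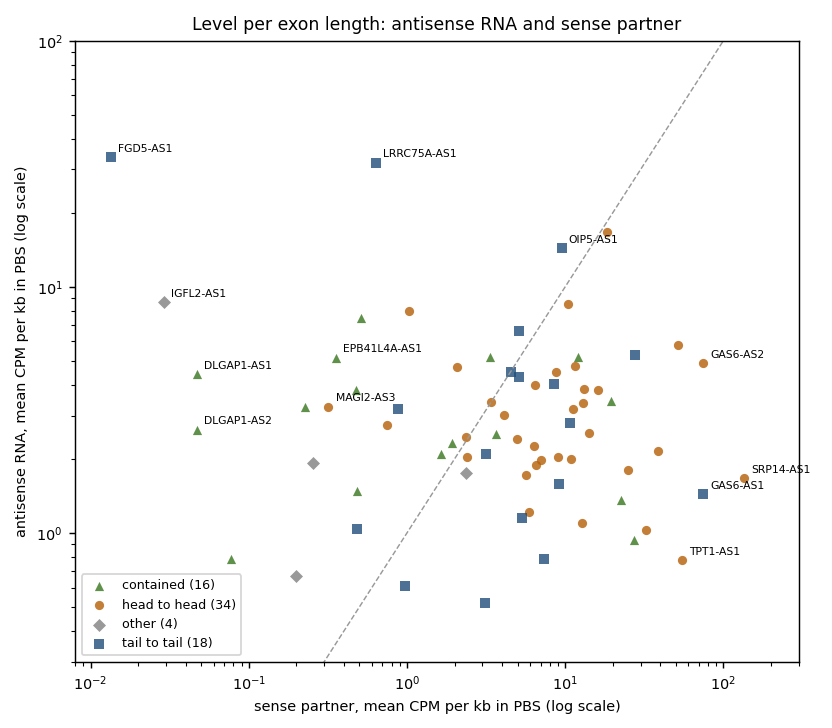
Mean level in the 2 PBS libraries in CPM per kb of exon (both axes log scale) of 72 antisense RNAs, vertical, against their sense partners, horizontal, with the marker shape giving the annotated position and the dashed line equal levels. Antisense RNAs span a narrower range than their partners, and 25 of the 72 lie above the line. Only the antisense RNAs had to reach 300 counts over the libraries.

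The position of the pair went along with this ratio. Over the 66 pairs in which both genes passed the filter, the antisense RNA was above the partner in 8 of 13 contained pairs (median ratio 1.27), in 5 of 17 tail-to-tail pairs (0.629) and in 5 of 34 head-to-head pairs (0.291). Head-to-head partners were themselves abundant, with a median of 9.72 CPM per kb, against 1.93 for partners of contained pairs. The median of the antisense RNAs was 2.65 in head-to-head and 3.25 CPM per kb in contained pairs. These are descriptions of annotated classes, and the length used, the union of all annotated exons, changes the number of antisense RNAs above the partner to 27 of 72 when the longest transcript is used instead.

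The head-to-head pairs had their annotated starts a median of 348.5 bases apart, 30 of the 34 at most 1000 bases and 8 at most 100 bases. The closest were COX10-AS1, 1 base from the start of COX10, an enzyme of heme A synthesis, EXOC3-AS1, 2 bases from EXOC3, an exocyst subunit, and OTUD6B-AS1, 7 bases from OTUD6B, a deubiquitinase. RefSeq promoter windows of 300 bases, from 250 before to 50 after the annotated start (GRCh38.p14), were matched for 59 of the 73 antisense RNAs and 60 of the 71 partners. For 53 pairs both windows were present, and in 15 of them, 14 head to head, the windows overlapped.

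Promoters of the antisense RNAs were rich in CG dinucleotides, with a median of 23 per window against 26 for the partners and 14 over 27305 promoters. The GC box GGGCGG, searched on both strands as were all motifs here, was present in 76.3% of antisense windows, 65.0% of partner windows and 44.6% of all windows. The ETS-type motif CCGGAAG was present in 27.1%, 20% and 10.7%, the TATA motif TATAAA in 1.69%, 6.67% and 12.0%, CCAAT in 37.3%, 33.3% and 35.7%, and the E-box CACGTG in 11.9%, 6.67% and 7.43%. A match of these letters is a description of the window and not evidence of binding.

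The members that differed most between libraries were MAGI2-AS3 and GAS6-AS2, both head to head with their partner, and both without a single count in rIL-17B replicate 1. MAGI2-AS3 lies on chromosome 7 from 79452877 to 79471208 on the plus strand (GRCh38), and its start is 697 bases inside the 5' end of MAGI2, a membrane-associated scaffold protein. It had 610 and 481 counts in PBS, 0 in rIL-17B replicate 1 and 549 for replicate 2, or 38.4, 37.3, 0 and 31.3 CPM. Against the PBS mean of 37.8 ± 0.730 CPM (SD, n = 2), the level in rIL-17B replicate 1 was at least 184-fold lower, taking 3 counts as the limit of that library. MAGI2 followed the same course, with 139, 146, 0 and 105 counts, at least 48.9-fold lower in rIL-17B replicate 1. Both genes were counted in 3 libraries and had 0 counts in the other, and since these are bulk libraries, fewer cells of a type and less RNA per cell cannot be told apart.

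GAS6-AS2 lies on chromosome 13 from 113864168 to 113866833 on the plus strand, and its start is 101 bases from that of GAS6, the secreted ligand of the receptor tyrosine kinases AXL, TYRO3 and MERTK. It had 148 and 126 counts in PBS, 0 in rIL-17B replicate 1 and 149 for replicate 2, at least 46.5-fold below the PBS mean in that library. GAS6 had 7325 and 5554 counts in PBS, 91 in rIL-17B replicate 1 and 6533 for replicate 2, a level 71.6-fold below the PBS mean. The other antisense RNA of this gene, GAS6-AS1, which overlaps the 3' part of GAS6, had 178 and 121 counts in PBS and 86 and 166 with rIL-17B, and its level was 1.75-fold below the PBS mean in rIL-17B replicate 1. The antisense RNA at the 5' end and GAS6 were thus far lower there, and the one at the 3' end much less so. No member had fewer than 4 counts in another library with at least 100 in each of the rest, and such a loss in rIL-17B replicate 1 was seen in 2 of 73 members, against 2.97% of the 11505 genes with at least 300 counts, which alone can meet that rule.

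TPT1-AS1, 25 bases from the start of TPT1 on chromosome 13 (45341345 to 45393413, plus strand), was lower by less. It was at 8.36 and 7.76 CPM in PBS, 4.04 CPM in rIL-17B replicate 1 and 7.23 CPM for replicate 2, and TPT1 was at 414, 382, 233 and 364 CPM. In rIL-17B replicate 1 the antisense RNA was 2.00-fold and TPT1 1.71-fold below the PBS mean, and in rIL-17B replicate 2 the ratio to the PBS mean was 0.897 for TPT1-AS1.

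The promoter windows of these 3 head-to-head pairs, whose 2 genes were both lower in rIL-17B replicate 1, are printed 5' to 3' on the strand of each gene, with GGGCGG or CCGGAAG on either strand in capitals (CCGCCC and CTTCCGG are their complements). They lie at chr7:79452707-79453006 (plus) for MAGI2-AS3, chr7:79453618-79453917 (minus) for MAGI2, chr13:113863927-113864226 (plus) for GAS6-AS2, chr13:113864027-113864326 (minus) for GAS6, chr13:45341095-45341394 (plus) for TPT1-AS1 and chr13:45341134-45341433 (minus) for TPT1.
MAGI2-AS3: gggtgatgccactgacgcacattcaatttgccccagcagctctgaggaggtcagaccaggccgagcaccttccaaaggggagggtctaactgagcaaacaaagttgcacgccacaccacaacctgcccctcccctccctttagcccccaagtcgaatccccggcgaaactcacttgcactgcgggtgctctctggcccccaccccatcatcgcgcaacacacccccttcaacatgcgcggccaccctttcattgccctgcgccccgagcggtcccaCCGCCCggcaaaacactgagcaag
MAGI2: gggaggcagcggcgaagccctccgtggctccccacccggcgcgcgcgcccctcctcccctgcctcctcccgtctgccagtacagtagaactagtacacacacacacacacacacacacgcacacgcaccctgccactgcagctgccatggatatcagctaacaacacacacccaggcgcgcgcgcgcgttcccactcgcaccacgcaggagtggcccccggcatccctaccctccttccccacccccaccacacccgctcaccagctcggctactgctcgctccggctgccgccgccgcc
GAS6-AS2: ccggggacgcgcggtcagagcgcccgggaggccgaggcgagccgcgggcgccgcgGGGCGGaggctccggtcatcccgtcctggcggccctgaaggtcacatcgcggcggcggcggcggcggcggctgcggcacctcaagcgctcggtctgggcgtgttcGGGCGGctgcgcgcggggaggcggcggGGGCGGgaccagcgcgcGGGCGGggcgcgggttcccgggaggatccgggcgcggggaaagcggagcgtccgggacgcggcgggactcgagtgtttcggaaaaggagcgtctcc
GAS6: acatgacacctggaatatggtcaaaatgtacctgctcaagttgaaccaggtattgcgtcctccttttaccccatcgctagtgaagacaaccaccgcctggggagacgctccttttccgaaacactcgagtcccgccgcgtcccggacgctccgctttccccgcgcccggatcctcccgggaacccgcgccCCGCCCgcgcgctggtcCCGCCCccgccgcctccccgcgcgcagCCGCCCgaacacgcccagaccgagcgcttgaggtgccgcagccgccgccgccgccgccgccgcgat
TPT1-AS1: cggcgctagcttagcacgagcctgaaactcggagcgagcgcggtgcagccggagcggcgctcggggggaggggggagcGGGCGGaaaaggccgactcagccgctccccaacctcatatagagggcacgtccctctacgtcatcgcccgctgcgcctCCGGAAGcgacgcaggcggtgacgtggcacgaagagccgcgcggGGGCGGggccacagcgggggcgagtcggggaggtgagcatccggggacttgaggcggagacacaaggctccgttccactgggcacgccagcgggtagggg
TPT1: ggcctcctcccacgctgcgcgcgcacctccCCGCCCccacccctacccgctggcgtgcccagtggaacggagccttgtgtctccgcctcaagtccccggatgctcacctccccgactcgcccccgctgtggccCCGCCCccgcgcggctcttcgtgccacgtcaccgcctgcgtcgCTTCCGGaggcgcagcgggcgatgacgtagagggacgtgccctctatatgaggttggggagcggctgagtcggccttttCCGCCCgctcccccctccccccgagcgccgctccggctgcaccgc
The windows of GAS6-AS2 and GAS6 shared 200 bases and those of TPT1-AS1 and TPT1 shared 261. GC boxes within the shared bases appear in both members of these pairs, read from opposite strands. Not every box is shared, since the GAS6-AS2 window held 4 and that of GAS6 3. The TPT1-AS1 window held 2 and that of TPT1 3. The windows at MAGI2 did not overlap, and the RefSeq starts there were 710 bases apart. The GAS6-AS2 window held 56 CG dinucleotides and the MAGI2-AS3 window 16.

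**Figure D3:**
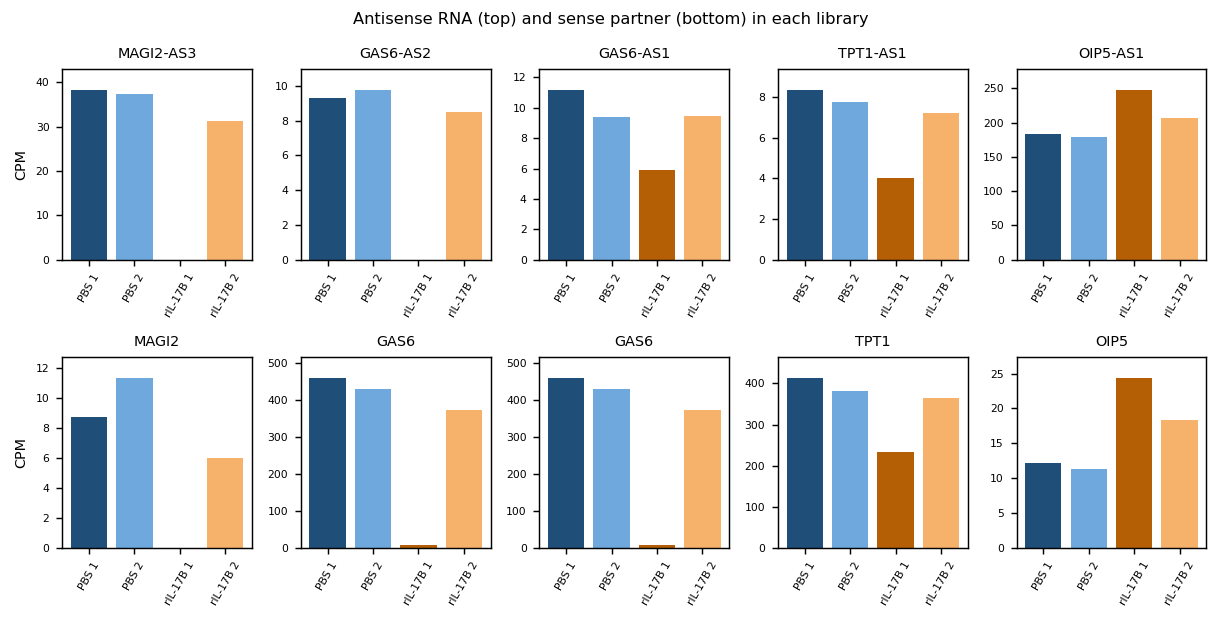
CPM in each library of 5 antisense RNAs (top row) and of the sense partner named below each (bottom row), with every vertical axis starting at 0 and bars for PBS replicates 1 and 2 and rIL-17B replicates 1 and 2; GAS6 is drawn under both of its antisense RNAs. MAGI2-AS3, MAGI2 and GAS6-AS2 have no bar in rIL-17B replicate 1, while for OIP5-AS1 and OIP5 both rIL-17B bars exceed both PBS bars.

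Over both libraries per group, the comparison of rIL-17B with PBS asks whether the cytokine changed these RNAs. After Benjamini-Hochberg adjustment of the edgeR quasi-likelihood p-values, no antisense RNA was under 0.05, and neither was any other gene: the share called was 0% of 16361 genes tested, and DESeq2 likewise called no antisense RNA. At an unadjusted p under 0.05, 1 of the 73 members was counted, DLGAP1-AS1, against 1.38% of all genes, and DESeq2 also counted 1. All 73 antisense RNAs passed the filter on low counts, and 65 of the 70 counted partners did. Log2 fold changes were above 0 for 42 antisense RNAs and below 0 for 31, with a median of 0.08 against -0.03 over all genes tested and 0.03 over the 11505 genes with at least 300 counts. For the partners they were above 0 for 36 and below 0 for 29, with a median of 0.07. Without rIL-17B replicate 1 the medians were 0.0001 for the antisense RNAs and -0.0039 for the partners, and without rIL-17B replicate 2 they were 0.07 and 0.11.

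DLGAP1-AS1, within DLGAP1 on chromosome 18, was at 9.68 and 8.92 CPM in PBS and at 22.6 and 13.8 CPM with rIL-17B. Its log2 fold change was 0.88 ± 0.27 (SE), and without rIL-17B replicate 1 it was 0.57. The quasi-likelihood test of edgeR gave an unadjusted p of 0.0361, which was 0.661 after adjustment over all genes, and the adjusted p without rIL-17B replicate 1 was 0.0651. DLGAP1-AS2, at 3603000 to 3608336 on the same strand, was at 8.11 and 8.54 CPM in PBS and 9.51 and 8.14 CPM with rIL-17B, so that its groups overlapped. DLGAP1 itself lay at 0.205 to 0.754 CPM and was not tested. The 2 antisense RNAs of this gene thus had unlike values, and the difference between their changes was not tested.

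PAX8-AS1 and GATA2-AS1 were higher in both rIL-17B libraries together with their partners, which are transcription factors. PAX8-AS1 was at 17.9 and 18.1 CPM in PBS and 34.8 and 21.8 CPM with rIL-17B, and PAX8, a paired-box factor of thyroid and kidney, at 3.08 and 4.04 against 8.07 and 5.53 CPM. GATA2-AS1 was at 10.6 and 10.01 CPM in PBS and 19.2 and 12.9 CPM with rIL-17B, and GATA2, a zinc-finger factor of blood progenitors, at 39.4 and 38.6 against 69.0 and 44.5 CPM. In both pairs rIL-17B replicate 1 was the highest library. Their log2 fold changes were 0.57 ± 0.24 for PAX8-AS1 and 0.56 ± 0.23 for GATA2-AS1, neither past the test. SLC16A1-AS1 was likewise at 9.56 and 11.3 CPM in PBS and 17.6 and 13.2 CPM with rIL-17B, and SLC16A1, the lactate transporter MCT1, at 180 and 167 against 239 and 193 CPM.

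For other members the values of the partner went the other way or stayed level. TMEM44-AS1 was at 4.65 and 5.43 CPM in PBS and 10.3 and 7.01 CPM with rIL-17B, while TMEM44 was at 20.2 and 21.2 against 16.5 and 19.8 CPM. DHRS4-AS1 was at 7.42 and 10.6 CPM in PBS and 2.67 and 5.58 CPM with rIL-17B (log2 fold change -1.17 ± 0.53), while DHRS4, a short-chain dehydrogenase that acts on retinoids, was at 7.80 and 9.08 against 11.3 and 8.09 CPM. Without rIL-17B replicate 1, the DHRS4-AS1 value was -0.68 (edgeR, adjusted p = 0.0761). GABPB1-AS1 was at 35.8 and 42.0 CPM in PBS and 29.6 and 31.2 CPM with rIL-17B. GABPB1, a subunit of the ETS-family GA-binding protein, was near level, at 34.9 and 37.3 CPM in PBS and 34.9 and 34.8 CPM with rIL-17B. Both rIL-17B values of GABPB1 lay slightly below both PBS values, with a log2 fold change of -0.12 ± 0.12 (SE). In contrast to TMEM44-AS1 and DHRS4-AS1, SVIL-AS1 was lower in both rIL-17B libraries together with SVIL, an actin-binding protein. The values in PBS and with rIL-17B were 13.1 and 14.7 against 8.01 and 11.3 CPM for the antisense RNA and 103 and 109 against 79.1 and 95.1 CPM for SVIL.

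Of the other members described here, several overlapped between groups. THAP9-AS1, whose partner is a domesticated DNA transposase, was at 32.2 to 43.0 CPM, PSMA3-AS1, whose partner is a proteasome subunit, at 31.1 to 41.3 CPM, and TP73-AS1, named for the p53-family factor TP73, at 28.99 to 34.01 CPM, each with overlapping groups. NNT-AS1 was at 26.3 and 24.0 CPM in PBS and 33.5 and 24.6 CPM with rIL-17B, and NNT, the mitochondrial nicotinamide nucleotide transhydrogenase, at 129 and 137 against 195 and 144 CPM. Here rIL-17B replicate 1 was the highest library for both genes. THUMPD3-AS1 did not overlap between groups, at 32.6 and 32.8 CPM in PBS and 44.8 and 35.9 CPM with rIL-17B, and THUMPD3, a tRNA methyltransferase, was at 66.2 and 63.9 against 108 and 75.0 CPM. MAPKAPK5-AS1, whose partner is a kinase downstream of p38, was at 10.1 and 11.5 CPM in PBS and 13.8 and 14.4 CPM with rIL-17B. The groups of these 2 did not overlap. STARD4-AS1, whose partner carries cholesterol between membranes, was at 11.5 and 11.02 CPM in PBS and 6.16 and 12.5 CPM with rIL-17B, on opposite sides of PBS in the 2 rIL-17B libraries. NUTM2B-AS1 was at 11.1 and 12.0 CPM in PBS and 17.3 and 14.5 CPM with rIL-17B, and IGFL2-AS1 at 15.8 and 14.4 against 29.97 and 16.3 CPM. Neither of these overlapped between groups, and their partners were too low to be tested. NOP14-AS1, whose partner takes part in assembling the small ribosomal subunit, was at 8.93 and 13.7 CPM in PBS and 7.46 and 9.23 CPM with rIL-17B, and TTC28-AS1 at 5.85 and 5.43 against 5.13 and 3.99 CPM.

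Of the 65 sense partners tested, 3 had an unadjusted p under 0.05 in edgeR's test, against 1.38% of all genes. None had an adjusted p under 0.05. The 3 were named after their values were seen. OIP5 is given above, COX10 was at 19.4 and 18.2 CPM in PBS and 34.7 and 24.1 CPM with rIL-17B, and PTOV1 at 26.7 and 32.2 against 23.8 and 22.1 CPM. The antisense RNA that starts 1 base from COX10 was at 7.80 and 7.84 CPM in PBS and 8.90 and 10.5 CPM with rIL-17B, and PTOV1-AS1 was at 9.85 to 10.3 CPM in all libraries. In the fit without rIL-17B replicate 1, log2 fold changes were 0.63 for OIP5, -0.74 for MAGI2 and -0.26 for GAS6. Both GAS6 and MAGI2 were thus also lower in rIL-17B replicate 2 than in PBS. OIP5, MAGI2 and GAS6 were picked by their values in that fit. In that fit the single rIL-17B library was assumed to vary as the PBS libraries do.

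With TMM-normalized CPM, both rIL-17B libraries were above both PBS libraries for 25 of the 73 antisense RNAs, against 28.5% of all genes tested, and below them for 16, against 30.4%. With CPM from the library total alone the numbers were 28 and 12, against 5161 and 4494 of the 16361 genes tested. Among the 11505 genes with at least 300 counts, 4007 were above and 3307 below on TMM-normalized CPM. By the library total, 4428 of these 11505 genes were above and 2923 below. In rIL-17B replicate 1 alone, on TMM-normalized CPM with 0.5 added, 2 members were at least 2-fold above the PBS mean, against 0.996% of genes, and 6 were at least 2-fold below it, against 19.9%. The 2 were DLGAP1-AS1 and DNAH17-AS1, and the 6 were MAGI2-AS3, GAS6-AS2, DHRS4-AS1, CD27-AS1, BAIAP2-AS1 and TPT1-AS1, of which DNAH17-AS1, CD27-AS1 and BAIAP2-AS1 are named after their values were seen. With CPM from the library total the numbers were 2, against 2.61% of genes, and 5, against 18.6%, since TPT1-AS1 lies at the limit and is then not counted. Of the 11505 genes with at least 300 counts, 89 were above and 1678 below by that fold on TMM-normalized CPM. With CPM from the library total, 287 of these 11505 genes were above and 1533 below. DNAH17-AS1 was at 11.1 and 11.9 CPM in PBS and 26 and 13.7 CPM with rIL-17B, and DNAH17, an axonemal dynein heavy chain, at 26.3 and 26.8 against 54.3 and 30.7 CPM. In rIL-17B replicate 2 no member was 2-fold above the PBS mean and none 2-fold below it, against 0.0672% and 0.575% of genes. Members differed from the PBS mean by a median absolute log2 ratio of 0.30 in rIL-17B replicate 1, against 0.15 in the other rIL-17B library and 0.13 between the PBS libraries, while all genes tested had 0.43, 0.14 and 0.12.

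Antisense RNAs and partners were then compared pair by pair. In 37 of the 66 pairs with both genes tested the log2 fold changes had the same sign, above 0 in 22 and below 0 in 15, and in 29 pairs they differed, with the antisense RNA above 0 in 15 and the partner in 14. The number was 20 of 34 in head-to-head pairs, 8 of 13 in contained and 8 of 17 in tail-to-tail pairs, and 11 of the 16 head-to-head pairs with starts at most 300 bases apart. Over the 66 pairs, which share libraries and in part exon bases, the log2 ratios to PBS had a Pearson's r of 0.68 in rIL-17B replicate 1, against 0.26 for replicate 2. Without MAGI2-AS3 and the GAS6 pairs it was 0.18 over 63 pairs in rIL-17B replicate 1, so the larger value rested on them. Head-to-head pairs had 0.87 over 34 pairs in rIL-17B replicate 1 and 0.35 without MAGI2-AS3 and GAS6-AS2, and the corresponding values for replicate 2 were 0.44 and 0.34. Tail-to-tail pairs had 0.42 and 0.12 over 17 pairs, and contained pairs 0.06 and -0.05 over 13 pairs, in rIL-17B replicates 1 and 2. Spearman's rho over the 66 pairs was 0.33 and 0.28 in rIL-17B replicates 1 and 2.

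**Figure D4:**
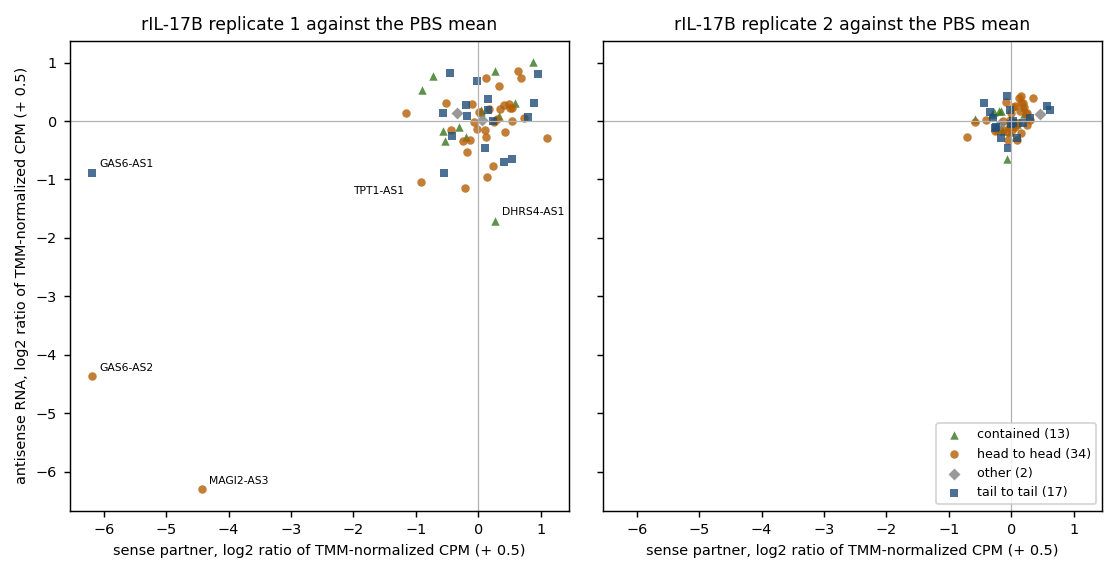
Log2 ratio to the PBS mean (TMM-normalized CPM, 0.5 added) of the antisense RNA, vertical, against that of its sense partner, horizontal, for 66 pairs in rIL-17B replicate 1 (left) and rIL-17B replicate 2 (right), with marker shapes for the annotated position. In rIL-17B replicate 1 the MAGI2-AS3 and GAS6-AS2 pairs lie far down on both axes and GAS6-AS1 only on the horizontal one, whereas in rIL-17B replicate 2 all pairs lie within 2-fold of the PBS mean on both axes.

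The per-kilobase ratio of antisense to sense was compared with its value in PBS for the same 66 pairs. On the log2 scale it changed by a median of -0.12 in rIL-17B replicate 1, against 0.01 for replicate 2. It was -0.21 and 0.04 for head-to-head and 0.14 and 0.05 for contained pairs. Pairs whose exons share no base had the same sign in 8 of 17 cases. Those sharing up to 10% of the antisense RNA's exon bases had it in 18 of 34, and those sharing over 10% in 11 of 15. Spearman's rho of the log2 ratios was 0.22, 0.28 and 0.45 in that order in rIL-17B replicate 1. For replicate 2 it was 0.38, 0.24 and 0.06. Where exons are shared, reads of both genes can be counted for either, and the part of this in these values was not tested.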

How the data were processed

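Total RNA of HGC-27 cells was sequenced after Smart-seq2 library construction in 2 PBS and 2 rIL-17B libraries. The authors deposited raw read counts per gene name for each library, and their processing notes name HISAT2 2.1.0, TopHat2, Bowtie2 2.2.3, HTSeq 0.6.0 and hg38 without settings. The gene annotation and strand setting of the counting are not given in the sources used here. The 4 lists were joined by name (missing names as 0 counts), 22 to 25 entries per library that spreadsheet software had turned into dates were dropped, and for the 83 to 98 names per library listed more than once the rows were reduced to 1. Groups and replicates follow the sample labels.

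Counts were tested with edgeR 4.0.16 (R 4.3.3), using trimmed mean of M-values normalization, the default filter on low counts, the quasi-likelihood test with group as the only term, and Benjamini-Hochberg adjustment over 16361 genes at 0.05; the script was tested on simulated data. DESeq2 1.42.0 (Wald test), upper-quartile normalization, other filters, a replicate block and leaving out each library were the alternatives. CPM is the count over the library total, and log2 ratios to the PBS mean used CPM normalized by the trimmed mean of M-values with 0.5 added, while folds below the PBS mean given for single genes used the plain CPM. Genes were located in GENCODE release 29 (GRCh38), 67 antisense RNAs by name and 6 through RefSeq synonyms. A pair was called head to head when their starts lay at most 5000 bases apart on opposite strands with the bodies facing away or the 5' ends overlapping. The genes described in detail were the 10 antisense RNAs with the most counts, the 5 with the smallest p in each direction, the 5 highest and 5 lowest per kilobase relative to the partner, up to 5 with an untested partner, those lost from 1 library, 7 of a list of 25 well-studied antisense RNAs, and the partners of all these. The members and lists were chosen with earlier results of these data known. The comparisons with genes of at least or under 300 counts, the 2-fold counts by library total and those without the MAGI2-AS3 and GAS6 pairs were chosen after seeing the data. One antisense RNA is not reported here.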

Additional observations from a re-analysis of the deposited data

How the results depend on the processing

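The design has 2 libraries per group, rIL-17B replicate 1 stood far from the others, and the least abundant members rest on 308 to 322 counts over the 4 libraries. The number of antisense RNAs past the adjusted threshold was 0 with DESeq2, either other filter, upper-quartile normalization and the replicate block, and ran from 0 to 30 when each library was left out, the 30 arising without rIL-17B replicate 2, when rIL-17B replicate 1 alone stands for its group and is assumed to vary as the PBS libraries do. Over all genes that range was 0 to 9489, with 504 without rIL-17B replicate 1. Antisense RNAs with an unadjusted p under 0.05, 1 as reported, numbered 3 with at least 10 counts in every library, 2 each with upper-quartile normalization, without a filter and under the replicate block, and 0 to 32 without single libraries. The fit without rIL-17B replicate 2 tested 17223 genes, with all 73 antisense RNAs among them, and that without rIL-17B replicate 1 tested 17103. In both fits, each with 1 rIL-17B library, a smaller share of antisense RNAs than of all genes had an unadjusted p under 0.05. With at least 10 counts in every library, edgeR's unadjusted p was under 0.05 for 462 of 13542 genes, and 71 antisense RNAs were tested. It was under 0.05 for 190 of 16361 genes with upper-quartile normalization and 879 of 31907 without a filter. Same-numbered libraries share only a number in the labels. The deviations of the replicate 1 libraries correlated at 0.0815 over genes. The replicate block left 173 genes with an unadjusted p under 0.05 against 226. The median log2 fold change of the antisense RNAs ran from 0.0001 to 0.0724 without single libraries and was -0.0345 with a limit of 100 counts (196 names) and 0.11 with 1000 (19 names). That of the partners ran from -0.0039 to 0.1124, and the number of same-sign pairs, across all alternatives, from 34 to 42.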

Other observations

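Names ending in -AS and 1 digit that stayed below 300 counts numbered 825. Of the 279 that passed the filter on low counts, 110 (39.4%) had a log2 fold change above 0 and 169 below 0, with a median of -0.22, against 34.2% above 0 and a median of -0.29 over the 4856 tested genes under 300 counts. Of the 279, none passed the adjusted threshold in edgeR's quasi-likelihood test and 2 had an unadjusted p under 0.05. Among them SOX21-AS1, antisense to a neural SOX factor, had 111 and 103 counts in PBS, 0 in rIL-17B replicate 1 and 62 for replicate 2, and without rIL-17B replicate 1 its log2 fold change was -1.08, with an adjusted p of 0.00346. FEZF1-AS1, antisense to a zinc-finger factor of the forebrain, had 87, 97, 0 and 70 counts, and HAND2-AS1, antisense to a heart and mesenchyme factor, 53, 30, 0 and 32. These 3 had 0 counts in rIL-17B replicate 1 alone, as MAGI2-AS3 and GAS6-AS2 did. APCDD1L-AS1 was instead alike in both rIL-17B libraries, at 3.46 and 2.79 CPM in PBS and 5.75 and 5.75 CPM with rIL-17B, with a log2 fold change of 0.81 ± 0.28 (SE). All 4 were chosen after their values were seen.

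Among well-studied antisense RNAs below the limit, CDKN2B-AS1, the ANRIL transcript of the CDKN2A and CDKN2B locus, was at 2.83 and 3.49 CPM in PBS and 4.65 and 3.19 CPM with rIL-17B, and TMPO-AS1 at 3.71 and 3.34 against 6.57 and 4.10 CPM. ZEB1-AS1, named for a repressor of epithelial genes, was at 3.27 and 3.34 CPM in PBS and 1.64 and 3.13 CPM with rIL-17B, and LOXL1-AS1, named for a matrix crosslinking enzyme, at 4.15 and 4.81 against 1.92 and 3.53 CPM. The rIL-17B replicate 1 value was the extreme one in each of these 4, which do not stand for all such names below the limit. AFAP1-AS1 was at 0.880 and 1.55 CPM in PBS and 1.16 and 1.14 CPM with rIL-17B. KTN1-AS1 was at 2.26 and 2.95 against 2.395 and 3.02 CPM. Long intergenic names starting with LINC numbered 843, of which 190 were tested. Their median log2 fold change was -0.10, with 88 above 0 and 102 below 0. In edgeR's test 3 had an unadjusted p under 0.05, against 1.38% of all genes tested, and none passed the adjusted threshold.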
